A study of Mus musculus with 10 samples.

Results

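A pair of re-expressed forms of syndecan-1 were set side by side in MC38 cells, a mouse colon adenocarcinoma line. The comparison takes 4 of the 10 RNA-seq libraries of the series: 2 from MC38 with the form that the labels call c30 and 2 from MC38 with the form that they call ect. They were chosen by cell line, genotype and treatment as the titles and labels give them. Cells of all these groups also carried an sdc1 knockdown, were grown in DMEM with 10% serum and were given the cytokine interferon gamma (IFNγ), 10 ng/ml during 24 h. The labels name c30 and ect only as mutants, and neither form is described further in the sources used here. A pair of MC38 libraries with the knockdown and no added form gave a reference level and entered the estimate of the spread. No MC38 library without IFNγ or without the knockdown is analysed here, so a difference between c30 and ect is one between cells that had all been given IFNγ. The labels do not say if replicates were separate cultures, so the p-values speak of the scatter between these libraries alone, and that scatter may be technical.

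Syndecan-1 is a transmembrane protein whose outer part carries heparan sulphate chains, long sulphated sugars that hold growth factors and chemokines at the cell surface. Its outer part can be shed by proteases, and its short cytoplasmic tail binds PDZ proteins and the cytoskeleton. IFNγ signals through its receptor and the kinases JAK1 and JAK2 to transcription factors that bind GAS elements. IRF1 is induced in turn, and factors of the IRF family bind interferon-stimulated response elements (ISRE). The genes switched on include large GTPases that attack the vacuoles of intracellular pathogens, chemokines that draw T cells, and the machinery of antigen presentation.

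Total counts were 11349447 and 11486999 in the c30 libraries, 11384847 and 15041133 in the ect-labelled libraries, and 13776177 and 13270176 in the knockdown libraries. Levels are given as CPM, counts per 1000000 counts of the TMM-normalized library, with replicate 1 before replicate 2. CPM is not divided by gene length, so levels are compared between libraries and not between genes. A log2 fold change is c30 minus ect throughout, and SE is its standard error, derived from the F statistic of the test. The call rule was a Benjamini-Hochberg adjusted p under 0.05 in edgeR's quasi-likelihood test over 15031 tested genes. Over 10722 genes, the root mean square log2 difference was 0.165 between the c30 libraries, 0.160 between the ect-labelled libraries and 0.170 to 0.180 between a c30 and an ect-labelled library. The distance from either form to a knockdown library was 0.202 to 0.222, so that the libraries of the 2 forms lay closer to each other than to the knockdown. Leukocyte markers summed to 22.98 to 25.1 CPM of the library total in the 6 libraries. Most of it was Cd14 (143 to 210 counts per library) and Cd68 (68 to 97), whereas Adgre1, Cd3e and Nkg7 had 0 counts in each. The 21 epithelial markers, of which 5 or 6 per library were at 1 CPM or more, summed to 229 to 288 CPM of the library total. Most of it was the junction protein Tjp1 (2402 to 3551 counts per library), followed by Cdh1 (63 to 189), whereas Epcam (2 to 6), Krt18 (0 to 6) and Cdx2 (0 or 1) were near 0 in this colon line. At the same time, 14 of 14 mesenchymal transition genes reached 1 CPM in every MC38 library. The 12 melanocyte markers summed to 296 to 423 CPM of the library total, mostly Gpnmb (3261 to 5494 counts per library). In c30 replicate 2, the melanocyte genes Dct and Tyrp1 had 28 and 31 counts, against at most 7 in any other MC38 library. Pmel (25 counts) and Mlana (7) were also highest there, whereas Gpnmb (3666) and Mitf (55) were not. Tyr and Sox10 had 1 count there, and Oca2 and Slc45a2 had 0.

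Sdc1 itself was the gene with the smallest p. It stood at 96.1 and 100.3 CPM with c30, at 22.6 and 25.1 CPM in the libraries labelled ect and at 24.4 and 29.8 CPM in the knockdown. Both c30 libraries lay far above the other 4, and the ect-labelled libraries overlapped the knockdown. The log2 fold change was 2.03 (SE 0.0891, adjusted p = 5.55e-33), a 4.09-fold difference, and it passed under all 15 alternatives tried. The Sdc1 count thus separated c30 from ect by label, whereas it does not check the label ect, since the table holds 1 count per gene and does not show which part of a transcript was read. Values given for ect are those of the libraries labelled ect.

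Of the other heparan sulphate proteoglycans, none of the 10 tested passed. Syndecan-4 (Sdc4), the family member found at focal adhesions, stood at 83.96 and 80.6 CPM with c30 and 81.9 and 82.8 CPM with ect. Its log2 fold change of 0.00 had a 95% interval of -0.12 to 0.12. The log2 fold change of glypican-1 (Gpc1), which is anchored by a lipid, was 0.09 (SE 0.0577, adjusted p = 0.696). Among 17 tested enzymes that build, sulphate and edit the heparan sulphate chain, 0 were called, and their log2 fold changes ran from -0.22 to 0.27. The basement membrane proteoglycan perlecan (Hspg2) and the chain polymerase subunit Ext2 had log2 fold changes of -0.06 (SE 0.102) and -0.16 (SE 0.0616), with adjusted p = 0.942 and 0.376.

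Beyond Sdc1, few genes passed the call rule. With 2 libraries a group, a gene that did not pass may still differ. With c30, 20 genes were higher (0.133% of those tested) and 25 lower (0.166%), together 45 of 15031 (0.299%). Unadjusted p was under 0.05 for 1311 genes. The changes were small: the median absolute log2 fold change of called genes was 0.33, against 0.10 over all tested genes, and only 3 called genes were at least 2-fold higher and 4 at least 2-fold lower. In all 45, both c30 libraries lay on the same side of both ect-labelled libraries. Over all tested genes, both c30 libraries lay above both ect-labelled libraries in 19.5% and below both in 19.2%. All 45 called genes are given below. The 16 that the naming rule did not take, and the uncalled genes Gbp7, Gvin1, Bst2, Cd274, H2-K1, B2m, Ifngr1, Jak1, Jak2, Cxcl9, Ccl5, Isg15, Oas2, Apol9a, Col1a2, Col3a1, Mvd, mt-Nd1, Sdc4, Gpc1, Dusp6, Etv5, Fos, Tnfaip3, Fasn, Actg1, Gapdh, mt-Rnr1 and mt-Rnr2, were chosen after their values were seen.

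**Figure D1:**
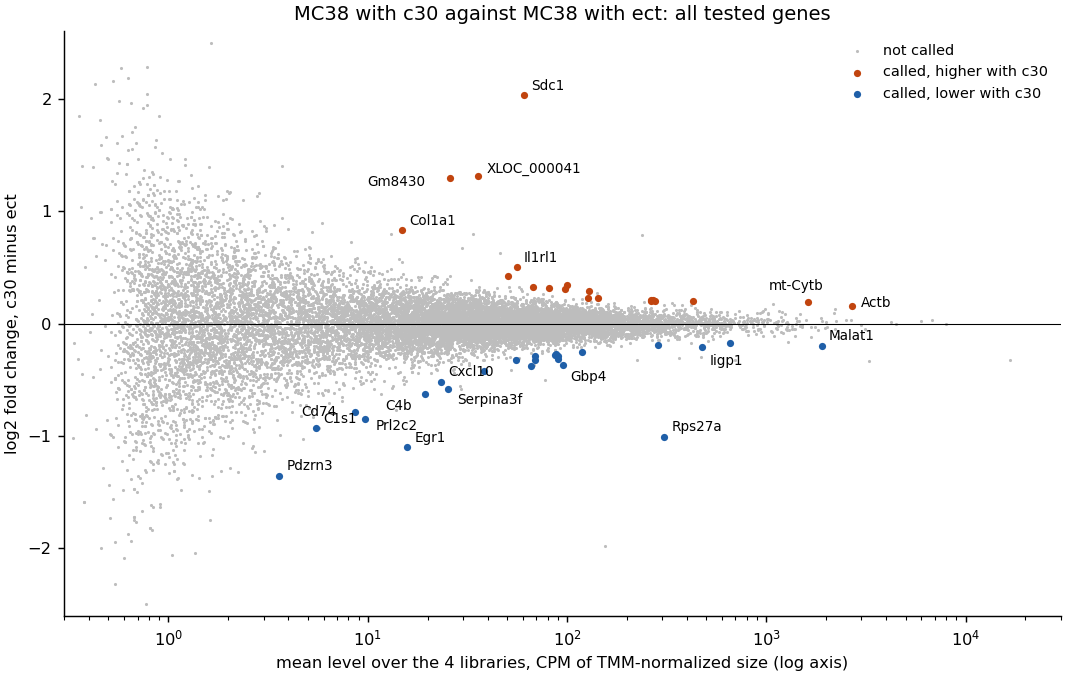
Log2 fold change, c30 minus ect, against the mean level over the 4 libraries in CPM of TMM-normalized size (log axis), 1 point per tested gene, with called genes in colour. Most called genes lie within 1 log2 unit of 0, and Sdc1 stands apart at 2.03; 8 tested genes, among them Gm10634, lie outside the vertical range drawn.

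Each called gene of the interferon and antigen presentation lists was lower with c30. With Gm4841, which is in no list, they were Gbp4 and Gbp3, guanylate-binding proteins, Iigp1 and Gm4841 (a synonym of Ifgga3 in RefSeq), immunity-related GTPases, Apol9b, an apolipoprotein L gene, and Cd74, the chaperone that MHC class II molecules need. The sequences before the starts of Apol9b and Gbp3, and of the chemokine gene Cxcl10 and the protease inhibitor gene Serpina3f, which were also lower with c30, are printed because they hold the letters of the ISRE and GAS elements of the interferon response. They are the 250 bases before a RefSeq start on build GRCm38.p6, 5′ to 3′ on the gene's strand, with the matches in capitals:
Apol9b (chr15:77728822-77729071, plus strand): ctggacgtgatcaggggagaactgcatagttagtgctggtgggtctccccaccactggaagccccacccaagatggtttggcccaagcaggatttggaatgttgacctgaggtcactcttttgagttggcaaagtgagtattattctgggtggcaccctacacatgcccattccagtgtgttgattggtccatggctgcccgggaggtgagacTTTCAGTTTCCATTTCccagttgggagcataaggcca
Gbp3 (chr3:142559794-142560043, plus strand): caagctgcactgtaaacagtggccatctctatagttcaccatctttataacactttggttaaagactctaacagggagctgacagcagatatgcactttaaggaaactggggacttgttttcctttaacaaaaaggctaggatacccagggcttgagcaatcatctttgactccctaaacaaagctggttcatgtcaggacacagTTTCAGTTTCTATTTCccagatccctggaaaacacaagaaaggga
Cxcl10 (chr5:92348890-92349139, minus strand): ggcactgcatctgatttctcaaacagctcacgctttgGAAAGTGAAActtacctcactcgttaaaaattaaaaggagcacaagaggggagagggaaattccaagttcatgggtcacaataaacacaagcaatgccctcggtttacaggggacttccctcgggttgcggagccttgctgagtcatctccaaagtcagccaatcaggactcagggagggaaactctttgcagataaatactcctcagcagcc
Serpina3f (chr12:104214294-104214543, plus strand): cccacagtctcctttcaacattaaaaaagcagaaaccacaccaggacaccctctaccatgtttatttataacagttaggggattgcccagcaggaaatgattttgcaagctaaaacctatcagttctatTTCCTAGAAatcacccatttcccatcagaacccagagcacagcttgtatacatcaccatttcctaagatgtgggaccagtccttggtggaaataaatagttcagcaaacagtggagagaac

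In Apol9b the capitals are 2 overlapping ISRE-like matches, from -37 to -28 and from -31 to -22 counted from the start. Gbp3 also holds a pair that overlaps, from -45 to -36 and from -39 to -30, while the window of a second Gbp3 start in the table holds no match. The Cxcl10 match lies farther out, from -213 to -204, and the capitals in Serpina3f are a GAS-like match from -121 to -113. The letters searched, on both strands, were GAAA, any 2 bases and GAAA for ISRE, TTCNNNGAA for GAS, and GGGA, any base and TTTCC for the NF-kB element. Of the 45 called genes, 26 matched a promoter in the RefSeq table by symbol, 14 of the lower and 12 of the higher. Gbp4, Iigp1, Gm4841, Cd74, C4b and Egr1 were among the lower genes without one, so the shares below do not cover them. An ISRE-like match stood before 3 of the 14 lower genes (21.4%) and 0 of the 12 higher genes, against 3.16% of 9921 tested genes with a promoter and 2.98% of all 32851 promoters. A gene counted when any of its starts had a match. GAS-like letters were found before 1 of 14 and 0 of 12 (7.17% of tested genes), and the NF-kB-like letters before 1 of 14, Krt14, and 0 of 12 (0.423% of tested genes). A match describes letters in a window and not a bound site.

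Gbp4 was at 85.01 and 81.5 CPM with c30 and at 111 and 104 CPM with ect. Gbp3 was at 263 and 273 CPM with c30 and at 306 and 307 CPM with ect. For both, each c30 library was below each ect-labelled library, by 1.29-fold for Gbp4 (log2 fold change -0.37, SE 0.0613, adjusted p = 1.29e-04) and 1.14-fold for Gbp3 (-0.19, SE 0.0468, adjusted p = 0.0335). Iigp1, which loads onto parasite vacuoles, was at 434 and 447 CPM with c30, 503 and 518 CPM with ect and 619 and 595 CPM in the knockdown. The 3 groups did not overlap, and c30 was the lowest, 1.16-fold below ect (log2 fold change -0.21, SE 0.0427, adjusted p = 0.00327). Gm4841 followed the same order, with 77.7 and 79.6 CPM for c30, 90.1 and 100.05 CPM for ect and 107 and 103 CPM for the knockdown (log2 fold change -0.28, SE 0.0631, adjusted p = 0.0162). In bulk RNA, fewer cells that express a gene and less RNA per cell cannot be told apart. These families hold near-identical copies, and how the authors counted reads with several matches is not stated, so the share of each copy is uncertain.

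Apol9b was at 60.3 and 62.2 CPM with c30 and 77.6 and 76.2 CPM with ect, with no overlap (log2 fold change -0.33, SE 0.0668, adjusted p = 0.00345). Its neighbour in the family, Apol9a, was at 65.5 and 62.8 CPM with c30 and 70.6 and 72.4 CPM with ect and did not pass (adjusted p = 0.452). Cd74, which guides MHC class II through the endosome, was low throughout, at 6.11 and 6.58 CPM with c30, 11.2 and 10.7 CPM with ect and 12.03 and 14.01 CPM in the knockdown. Both c30 libraries had the fewest counts of Cd74, 70 and 75, against 126 and 162 with ect (log2 fold change -0.79, SE 0.182, adjusted p = 0.021). How many of these 6 interferon-inducible genes passed depended on which library of the contrast was left out. Without c30 replicate 1 only Gbp4 still passed (adjusted p from 0.00734 to 0.571 over the 6), and without c30 replicate 2 none did (0.0565 to 0.218). Without ect replicate 1, 4 passed (0.00695 to 0.175), and without ect replicate 2 only Gbp4 and Apol9b (1.32e-04 to 0.457). DESeq2 called Gbp4 and Iigp1 of the 5 it adjusted, and a fit with all 10 libraries of both lines called none (0.0639 to 0.98).

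**Figure D2:**
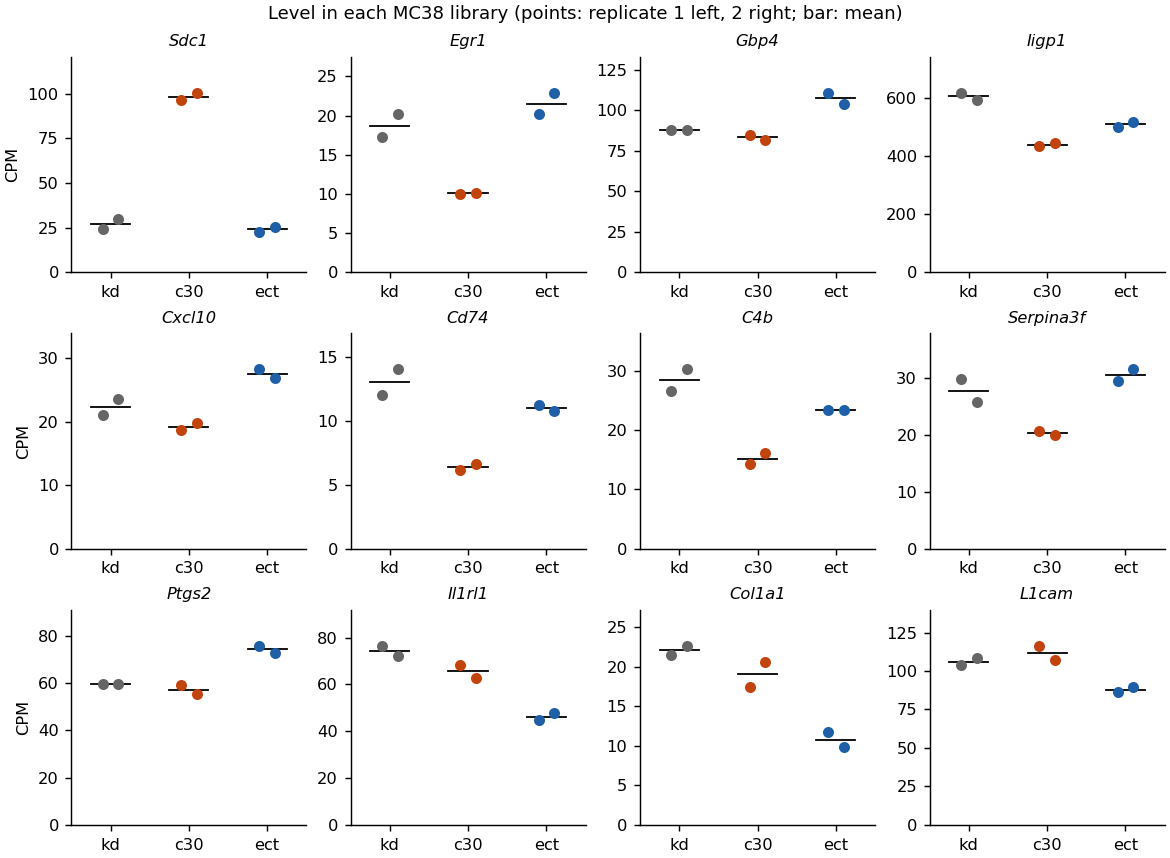
Level of 12 called genes in each MC38 library, in CPM of TMM-normalized size on axes that start at 0 (left point replicate 1, right point replicate 2, bar the mean; kd is the knockdown). For every gene shown the c30 and ect points do not overlap, and the knockdown points lie above both forms for Iigp1, C4b, Cd74, Il1rl1 and Col1a1.

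In the GTPase and antiviral lists, members without overlap were mostly lower, though few passed. Of 16 tested interferon-induced GTPases, 3 were lower, 0 higher, and 12 had both c30 libraries below both ect-labelled libraries (75.0%, against 19.2% of all tested genes). Their median log2 fold change was -0.15, and 15 of 16 were below 0. Of 47 antiviral interferon-stimulated genes, Apol9b alone was called, 23 lay below without overlap (48.9%) and 3 above, and the median was -0.16. In 9 tested class II genes Cd74 alone passed, and 4 lay below (44.4%) and 2 above (22.2%, against 19.5% of all tested genes). In 22 tested class I genes 0 passed, 4 lay below (18.2%, close to the share of all genes) and 1 above, and the median was -0.03. Over these 4 lists, 94 genes were tested, 5 were lower and 0 higher, 43 lay below without overlap (45.7%) and 6 above (6.38%), and the median was -0.11 against 0.00 over all genes. Of those 43, 12 were GTPases and 23 antiviral genes.

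Among the members that did not pass, Gbp7 was at 402 and 390.3 CPM with c30 and 454 and 439 CPM with ect (adjusted p = 0.0539). The giant GTPase Gvin1 had 9 and 8 counts with c30 and 24 and 43 with ect (adjusted p = 0.0693). The tetherin gene Bst2, whose product holds budding virus at the membrane, was at 107 and 102 CPM with c30 and 123 and 118 CPM with ect (adjusted p = 0.0963). In all of these the groups did not overlap. The ubiquitin-like modifier Isg15 and the 2-5A synthetase Oas2 were low, with log2 fold changes of -0.60 (SE 0.232) and -1.38 (SE 0.542) and adjusted p = 0.371 and 0.373. The nucleotide hydrolase Samhd1 had a log2 fold change of -0.11 (SE 0.0437, adjusted p = 0.385), which is the median of the 4 lists together. The ubiquitin ligase Rnf213 had one of 0.02 (SE 0.0433, adjusted p = 0.948).

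The class I molecules themselves were close in both forms. H2-K1 was at 1087 and 1139 CPM with c30 and 1156 and 1142 CPM with ect, close but without overlap. Its log2 fold change was -0.05 (SE 0.0377, adjusted p = 0.799). The light chain B2m was at 819 and 794 CPM with c30 and 799 and 807 CPM with ect, values that overlapped. H2-D1 had a log2 fold change of -0.05 with a 95% interval of -0.12 to 0.02, and B2m one of 0.01 with an interval of -0.07 to 0.08. The transactivator of class I genes, Nlrc5, gave -0.01 (SE 0.0445, adjusted p = 0.987), and the lysosomal proteases of the class II pathway Ctsl and Lgmn gave -0.05 (adjusted p = 0.751) and -0.11 (adjusted p = 0.611).

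Of 22 tested genes of the IFNγ pathway itself, 0 passed, and their log2 fold changes ran from -0.22 to 0.22 with a median of -0.02. Without overlap, 7 lay below (31.8%, against 19.2% of all tested genes) and 3 above (13.6%, against 19.5%). Ifngr1, the binding chain of the receptor, was at 38.8 and 38.01 CPM with c30 and 38.4 and 39.9 CPM with ect. Jak1 and Jak2 had log2 fold changes of 0.06 (SE 0.0488) and 0.08 (SE 0.0941). Irf1, the factor that carries the response to later genes, was at 386 and 401 CPM with c30 and 426 and 411 CPM with ect. Its libraries did not overlap, but the difference did not pass (log2 fold change -0.09, SE 0.0441, adjusted p = 0.567). The checkpoint ligand PD-L1 (Cd274), which IFNγ induces, was at 22.2 and 22.6 CPM with c30, 28.1 and 27.9 CPM with ect and 22.7 and 23.6 CPM in the knockdown. Its c30 and ect libraries did not overlap, but the difference did not pass (log2 fold change -0.32, SE 0.112, adjusted p = 0.274), and 0 of 14 tested checkpoint ligands and galectins were called. Of the galectins, Lgals1 gave -0.03 (adjusted p = 0.88) and Lgals3 0.05 (adjusted p = 0.785).

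Of the other genes lower with c30, 6 are secreted or inflammatory and are described together, a grouping made after they were called. Serpina3f and Ptgs2 are in no list, and the lists that hold Cxcl10, C4b, C1s1 and Nfkbiz had few calls. Cxcl10, an IFNγ-induced chemokine that attracts T cells through CXCR3 and binds heparan sulphate, was at 18.7 and 19.7 CPM with c30, 28.2 and 26.9 CPM with ect and 21.02 and 23.6 CPM in the knockdown. It was thus 1.43-fold lower with c30 than with ect, without overlap (log2 fold change -0.52, SE 0.117, adjusted p = 0.0162), and the knockdown lay between. It was the only one of 19 tested chemokines and cytokines to pass. Without overlap, 7 of them lay below (36.8%, against 19.2% of all tested genes) and 4 above (21.1%, against 19.5%). Cxcl9, a ligand of the same receptor, had 36 and 53 counts with c30 and 66 and 95 with ect (adjusted p = 0.357), and Ccl5 had 4 and 4 against 15 and 18 (adjusted p = 0.364). The abundant cytokines Csf1 and Mif had log2 fold changes of 0.06 (adjusted p = 0.714) and 0.04 (adjusted p = 0.914).

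Of 9 tested complement genes, 2 were called lower with c30, both of the classical pathway, against 0.166% of all tested genes. Without overlap, 4 lay below (44.4%, against 19.2% of all tested genes) and 1 above (11.1%, against 19.5%). The median of the list was -0.02. C4b, complement component 4, was at 14.2 and 16.2 CPM with c30, 23.4 and 23.4 CPM with ect and 26.7 and 30.3 CPM in the knockdown. C1s1, the protease that cleaves it, was at 4.01 and 3.51 CPM with c30, 7.81 and 6.63 CPM with ect and 9.2 and 8.24 CPM in the knockdown. In both genes c30 was the lowest group and the knockdown the highest, and the differences between the forms were 1.54-fold for C4b (log2 fold change -0.62, SE 0.125, adjusted p = 0.00304) and 1.91-fold for C1s1 (-0.93, SE 0.231, adjusted p = 0.0423). C1s1 had 46 and 40 counts with c30 and 88 and 100 with ect.

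Serpina3f, a serine protease inhibitor of the acute-phase type, was at 20.7 and 20.01 CPM with c30 and 29.4 and 31.5 CPM with ect (log2 fold change -0.58, SE 0.113, adjusted p = 0.00199). Ptgs2, the inducible cyclooxygenase that makes prostaglandins, was at 59.2 and 55.2 CPM with c30, 75.7 and 72.8 CPM with ect and 59.4 and 59.7 CPM in the knockdown. Here the knockdown lay near c30 and the ect-labelled libraries stood above both (-0.38, SE 0.0729, adjusted p = 0.00199). Nfkbiz, an inducible nuclear IκB protein, was at 34.7 and 31.2 CPM with c30 and 43.7 and 44.6 CPM with ect, with the knockdown just below the ect level (43.6 and 42.5 CPM; log2 fold change -0.42, SE 0.0941, adjusted p = 0.0127). It was the only called member of 22 tested NF-kB regulators and targets, whose median was -0.04. The deubiquitinase Tnfaip3 had a larger fold change on fewer counts (log2 -0.79, SE 0.274, adjusted p = 0.279), and the subunits Nfkb1 and Nfkb2 gave -0.02 (adjusted p = 0.967) and -0.03 (adjusted p = 0.93). Of these 6 genes, C4b alone passed without c30 replicate 2 (adjusted p from 0.0259 to 0.385), 3 passed without c30 replicate 1 (0.015 to 0.332), 4 without ect replicate 1 (0.00323 to 0.259) and 2 without ect replicate 2 (0.00622 to 0.119). DESeq2 called Serpina3f and Ptgs2 of the 5 it adjusted (largest adjusted p = 0.215), and the fit with all 10 libraries called Cxcl10, C4b and Serpina3f (largest 0.629).

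Egr1, an immediate early transcription factor that ERK signalling induces within minutes, was lower with c30. It was at 10.04 and 10.1 CPM with c30, 20.2 and 22.9 CPM with ect and 17.2 and 20.2 CPM in the knockdown. The c30 libraries lay alone at the bottom, 2.15-fold below ect (log2 fold change -1.10, SE 0.142, adjusted p = 9.28e-08), and the knockdown lay just below ect. Egr1 passed under all 15 alternatives. It was the only one of 30 tested genes of ERK feedback and the immediate early response to do so: Jun gave -0.09 (SE 0.051, adjusted p = 0.611), Fos, at 13 to 17 counts a library, 0.10 (SE 0.518, adjusted p = 0.983), and the ERK phosphatase Dusp6 and the ERK-induced factor Etv5 0.10 (SE 0.0672) and 0.16 (SE 0.0647, adjusted p = 0.371). The stress phosphatase Dusp1 was level (0.00, SE 0.0593, adjusted p = 0.998).

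Other genes lower with c30 belonged to no list. Pdzrn3, a ubiquitin ligase with PDZ domains, was at 1.66 and 2.37 CPM with c30, 5.15 and 5.17 CPM with ect and 4.28 and 5.24 CPM in the knockdown. This was a 2.56-fold difference on 19 and 27 counts against 58 and 78 (log2 fold change -1.35, SE 0.295, adjusted p = 0.00888). Prl2c2, a placental prolactin-like hormone known as proliferin, was at 7.59 and 6.23 CPM with c30 and 12.4 and 12.5 CPM with ect (-0.85, SE 0.178, adjusted p = 0.00516), and it too has near-identical copies. Krt14, a keratin of basal epithelium, gave -0.32 (SE 0.0628, adjusted p = 0.00268) and Cavin2, a coat protein of caveolae, -0.29 (adjusted p = 0.0295). The nuclear non-coding RNA Malat1 fell by 0.20 on the log2 scale (SE 0.0358, adjusted p = 5.96e-04). Smaller differences were those of Myo18a, an unconventional myosin (-0.25, adjusted p = 0.0215), Kcmf1, a ubiquitin ligase (-0.27, adjusted p = 0.021), and Baz1b, a chromatin remodelling subunit (-0.17, adjusted p = 0.0335). The predicted gene Gm36033 and the pseudogene Ptges3-ps gave -0.33 and -0.29 (adjusted p = 0.037 and 0.0423). Gm10634 had 0 counts in both c30 libraries and 15 and 8 with ect, which is at least 3.52-fold lower with c30 when 3 counts per library are taken as the floor (adjusted p = 0.0315). Without c30 replicate 2, none of these 11 genes passed (adjusted p from 0.0565 to 0.412), and 3 passed without c30 replicate 1 (0.0163 to 0.595), 5 without ect replicate 1 (1.57e-04 to 0.476) and 4 without ect replicate 2 (5.81e-04 to 0.713). Gm10634 was also lost without knockdown replicate 2. DESeq2 called Malat1 alone of the 8 it adjusted (largest adjusted p = 0.539), and the fit with all 10 libraries called Pdzrn3 alone (largest 0.999).

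Il1rl1, L1cam, Frrs1, Eps8 and the matrix gene Col1a1 were higher with c30 and are described together, a grouping made after they were called. Il1rl1, the receptor for interleukin 33, was at 68.2 and 62.9 CPM with c30, 44.7 and 47.7 CPM with ect and 76.5 and 72.00 CPM in the knockdown. L1cam, a neural adhesion molecule also made by invasive tumours, was at 116 and 107 CPM with c30, 86.04 and 89.6 CPM with ect and 104 and 108 CPM in the knockdown. In both, the ect-labelled libraries were the lowest, and c30 lay below the knockdown for Il1rl1 and overlapped it for L1cam. The c30 level was 1.42-fold that of ect for Il1rl1 (log2 fold change 0.50, SE 0.0768, adjusted p = 1.42e-05) and 1.27-fold for L1cam (0.35, SE 0.0607, adjusted p = 2.98e-04). The ferric reductase Frrs1 gave 0.33 (SE 0.0709, adjusted p = 0.00841) and Eps8, an actin-capping substrate of the EGF receptor, 0.20 (SE 0.0434, adjusted p = 0.00841).

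Col1a1, the main chain of collagen I, was at 17.5 and 20.5 CPM with c30, 11.7 and 9.82 CPM with ect and 21.5 and 22.6 CPM in the knockdown. Again ect was the lowest group, with c30 1.78-fold above it (log2 fold change 0.83, SE 0.142, adjusted p = 1.81e-04). Its partner chain did not follow: Col1a2 was at 159 and 154 CPM with c30 and 173 and 176 CPM with ect (log2 fold change -0.16, SE 0.0517, adjusted p = 0.225), and Col3a1 gave -0.03 (SE 0.0499). Col1a1 was the only one of 24 tested collagens to pass, and Col6a3 gave 0.01 (adjusted p = 0.964). Without overlap, 8 collagens lay above (33.3%, against 19.5% of all tested genes) and 7 below (29.2%, against 19.2%). The 9 fibroblast markers, Col1a1 among them, summed to 434 and 430.1 CPM of the library total with c30, 417 and 416 with ect, and 599 and 618 in the knockdown. Most of the sum was Col3a1 (2109 to 4221 counts per library), Pdpn (1263 to 1799), Pdgfrb (757 to 1296) and Pdgfra (373 to 646). Thy1 and Lum were at 0 to 2 counts in each library. Of matrix glycoproteins, metalloproteases, and integrins and focal adhesion genes, 0 of 32, 0 of 24 and 0 of 23 tested were called. In these lists Sparc gave -0.09 (adjusted p = 0.455), biglycan (Bgn) 0.10 (adjusted p = 0.393), the gelatinase Mmp2 0.17 (adjusted p = 0.07), its inhibitor Timp2 -0.07 (adjusted p = 0.663) and the integrin chain Itgb1 0.01 (adjusted p = 0.979). Without c30 replicate 2, Col1a1, Frrs1 and Eps8 no longer passed (largest adjusted p = 0.194), without c30 replicate 1 L1cam, Frrs1 and Eps8 did not (0.332), and Il1rl1 passed with any single library left out. Eps8 was also lost without ect replicate 1 (0.0983), and Frrs1 and Eps8 without ect replicate 2 (largest 0.361). DESeq2 called all but Frrs1 (0.162), and the fit with all 10 libraries called Col1a1 alone (largest 0.77).

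A cholesterol gene, a fatty acid gene and a pair of lysosomal genes were slightly higher with c30. Fdps, which makes farnesyl pyrophosphate on the way to cholesterol, was at 279 and 285 CPM with c30, 248 and 243 CPM with ect and 341 and 337 CPM in the knockdown. Elovl6, which lengthens saturated fatty acids, was at 139 and 136 CPM with c30 and 124 and 112 CPM with ect. Neither overlapped between the forms, and the differences were 1.15-fold for Fdps (log2 fold change 0.20, SE 0.0471, adjusted p = 0.0215) and 1.17-fold for Elovl6 (0.23, SE 0.0571, adjusted p = 0.0495). They were the only calls among 24 tested cholesterol genes and 20 tested fatty acid genes. Of the cholesterol genes, 11 lay above without overlap (45.8%, against 19.5% of all tested genes) and 2 below, with a median log2 fold change of 0.07. Of the fatty acid genes, 10 lay above (50%) and 2 below, with a median of 0.07. Mvd, a decarboxylase of the mevalonate pathway, gave 0.23 (SE 0.074, adjusted p = 0.205) and the regulator Srebf2 0.07 (adjusted p = 0.714). Of the fatty acid enzymes, the desaturase Scd2 gave 0.11 (adjusted p = 0.25), Fasn 0.07 (adjusted p = 0.715) and Acly 0.04 (adjusted p = 0.849).

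The lysosomal genes are in no list and were put together after they were called. Ctsa, a lysosomal carboxypeptidase that also protects other lysosomal enzymes, was at 138 and 145 CPM with c30, 113 and 117 CPM with ect and 153 and 148 CPM in the knockdown (log2 fold change 0.29, SE 0.0561, adjusted p = 0.00168). Grn, the lysosomal glycoprotein progranulin, gave 0.20 (SE 0.0477, adjusted p = 0.0215). For Fdps, Ctsa and Grn the knockdown was above both forms, so that ect was the group farther from it. Without c30 replicate 2 none of the 4 lipid and lysosomal genes passed (adjusted p from 0.193 to 0.508). Only Ctsa passed without c30 replicate 1 (the others up to 0.514) and without ect replicate 2 (up to 0.598), and Elovl6 and Ctsa passed without ect replicate 1 (the others up to 0.12). DESeq2 called Fdps and Ctsa (largest adjusted p = 0.398), and the fit with all 10 libraries none of the 4 (0.257 to 0.869).

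Actb, Tnnt2 and Tuba1a encode cytoskeletal or sarcomeric proteins and were put together after they were called. Actb, cytoplasmic actin, was at 2811 and 2872 CPM with c30, 2511 and 2576 CPM with ect and 2497 and 2548 CPM in the knockdown. Tnnt2, cardiac troponin T, was at 111 and 106 CPM with c30, 86.3 and 88.8 CPM with ect and 84.1 and 81.7 CPM in the knockdown. In both genes c30 stood above ect and the knockdown, by 1.12-fold over ect for Actb (log2 fold change 0.16, SE 0.0342, adjusted p = 0.00768) and 1.24-fold for Tnnt2 (0.31, SE 0.0606, adjusted p = 0.00204). The tubulin gene Tuba1a, which has near-identical copies, gave 0.21 (SE 0.0477, adjusted p = 0.021). Actb was the only call among 22 tested actin cytoskeleton genes, of which 8 lay above (36.4%, against 19.5% of all tested genes) and 1 below (4.55%, against 19.2%) without overlap, with a median of 0.03. Actg1 gave 0.10 (SE 0.0383, adjusted p = 0.344) and filamin A (Flna) 0.03 (SE 0.0363, adjusted p = 0.885). None of the 3 genes passed without c30 replicate 1 (adjusted p from 0.247 to 0.564) or without ect replicate 1 (0.0585 to 0.459). Tnnt2 alone passed without c30 replicate 2 (the others up to 0.412), and Tuba1a and Tnnt2 without ect replicate 2 (Actb at 0.0519). DESeq2 called Actb and Tnnt2 (Tuba1a at 0.077), and the fit with all 10 libraries none (0.804 to 0.999).

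Of 15 tested mitochondrially encoded transcripts, mt-Cytb, a subunit of complex III, was called. In the list 10 lay above without overlap (66.7%, against 19.5% of all tested genes), 0 lay below (against 19.2%), and the median log2 fold change was 0.13. mt-Cytb was at 1742 and 1711 CPM with c30, 1501 and 1528 CPM with ect and 1968 and 1768 CPM in the knockdown (log2 fold change 0.19, SE 0.0379, adjusted p = 0.00342). The forms did not overlap, and the knockdown was highest. The complex I gene mt-Nd1 gave 0.17 (SE 0.0434, adjusted p = 0.0693), the complex IV gene mt-Co1 0.03 (SE 0.0348, adjusted p = 0.866), and the ribosomal RNAs mt-Rnr1 and mt-Rnr2 -0.08 and -0.11. The nuclear genes of oxidative phosphorylation had a median of 0.01, and 0 of 55 were called. The other genes higher with c30 were Gsto1, a glutathione transferase (0.42, SE 0.0853, adjusted p = 0.00345), Zkscan3, a zinc finger repressor of autophagy genes (0.31, SE 0.0642, adjusted p = 0.00345), Fubp1, a single-strand binding regulator of Myc (0.21, SE 0.0488, adjusted p = 0.021), and Spaca6, a sperm membrane protein (0.22, SE 0.0557, adjusted p = 0.0448). Without c30 replicate 1, none of the 5 genes of this paragraph that had been called passed (adjusted p from 0.234 to 0.58), and without c30 replicate 2 only Gsto1 did (the others up to 0.377). Gsto1, Zkscan3 and Spaca6 passed without ect replicate 1 (the others up to 0.14), and Gsto1 and mt-Cytb without ect replicate 2 (up to 0.587). DESeq2 called mt-Cytb alone (the others up to 0.364), and the fit with all 10 libraries none (0.336 to 0.999).

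**Figure D3:**
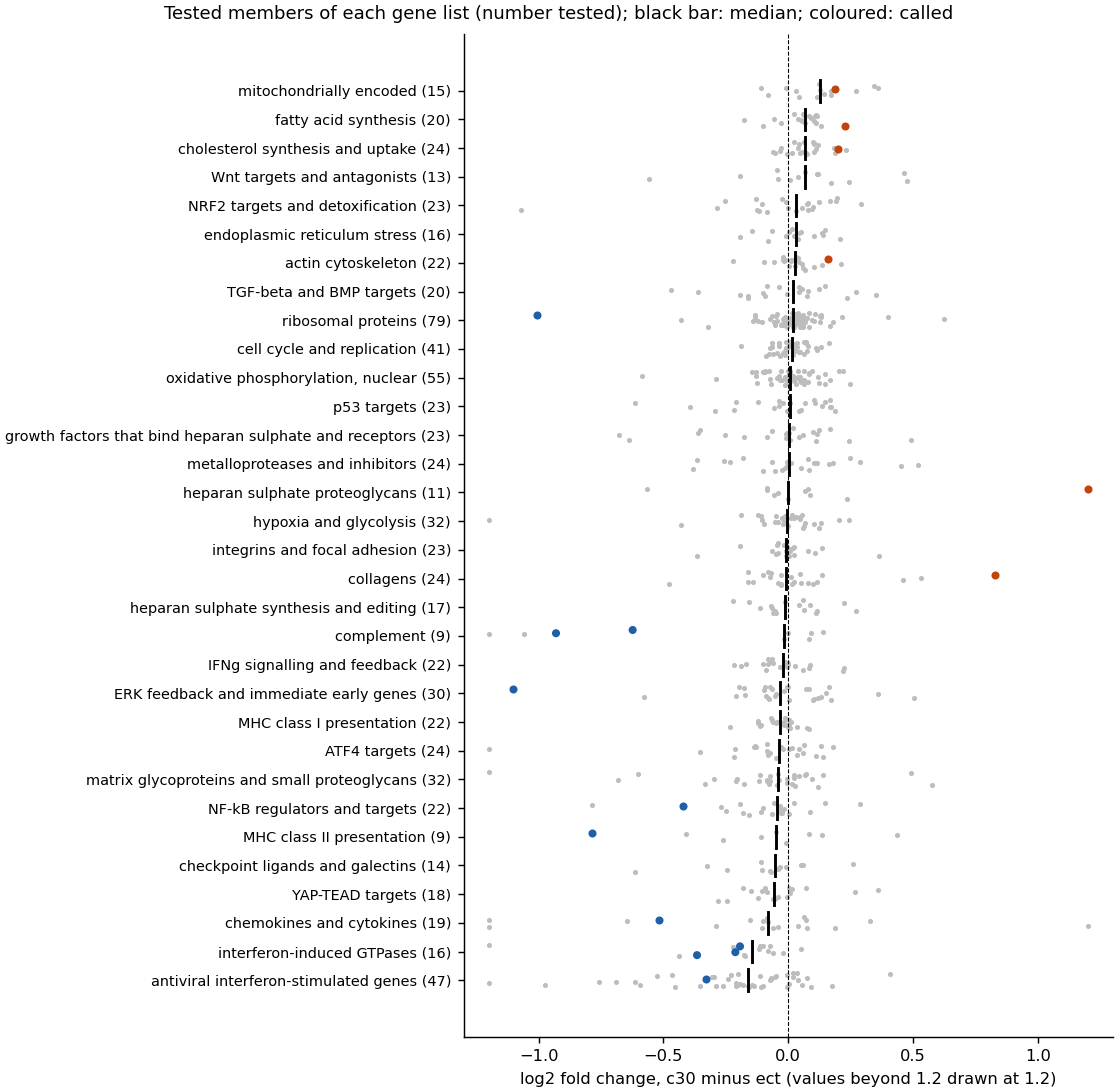
Log2 fold change, c30 minus ect, of the tested members of each gene list (number tested in brackets; black bar the median; called genes in colour; values beyond 1.2 drawn at 1.2). The lists with the lowest medians are the antiviral genes (-0.16) and the interferon-induced GTPases (-0.15), and the highest is the mitochondrially encoded list (0.13).

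Rps27a, which encodes ubiquitin fused to a ribosomal protein, was lower with c30 while an annotated copy of it was higher. Rps27a was at 191 and 217 CPM with c30, 411 and 411 CPM with ect and 291 and 285 CPM in the knockdown (log2 fold change -1.01, SE 0.049, adjusted p = 9.48e-30). Gm8430, named Rps27a-ps3 in RefSeq, was at 37.7 and 35.9 CPM with c30, 15.8 and 14.4 CPM with ect and 31.1 and 20.6 CPM in the knockdown (1.29, SE 0.136, adjusted p = 2.19e-07). The knockdown lay between the forms in both, though the directions were opposite. Reads of near-identical copies can be split between them, so each value alone is uncertain. Summed over Rps27a and its 3 annotated copies, the level was 253 and 267 CPM of the library total with c30, 439 and 441 with ect and 337 and 319 in the knockdown, so the sum was lower with c30 too. Rps27a was the only one of 79 tested ribosomal protein genes to pass, and their median was 0.02. Rps2 gave -0.04 (adjusted p = 0.757) and Rplp0 0.01 (adjusted p = 0.966). In the fit with all 10 libraries Rps27a did not pass (adjusted p = 0.869). XLOC_000041, a locus with no gene name, was at 55.4 and 46.3 CPM with c30, 18.02 and 22.6 CPM with ect and 33.6 and 24.5 CPM in the knockdown (log2 fold change 1.31, SE 0.137, adjusted p = 2.57e-05), and it too was lost in the fit with all 10 libraries (adjusted p = 0.356).

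Set against the knockdown as a reference level, with no test, the called genes were of several kinds. Of the 25 genes lower with c30, the knockdown mean lay between the forms in 17, above both in 7 and below both in 1. Of the 20 genes higher with c30, it lay between in 9, above both in 7 and below both in 4. Over all tested genes it lay between in 25.4%, above both in 36.9% and below both in 37.6%. Called genes were picked for a gap between the forms, which leaves more room for a mean between them. The counts for called genes and the shares over all genes are thus not like for like. For Iigp1, Gm4841, Apol9b, Cd74, C4b, C1s1 and Krt14, the knockdown was the highest, ect intermediate and c30 the lowest. The knockdown mean was nearer to c30 than to ect in 8 of the 25 lower genes and in 13 of the 20 higher genes. Gbp4, Ptgs2, Kcmf1 and Il1rl1 were among them. The share over all tested genes was not counted, so nothing is read from these counts. For Il1rl1, Col1a1, Ctsa, Grn, Fdps, Tuba1a and mt-Cytb, the order was knockdown, c30, ect from high to low.

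**Figure D4:**
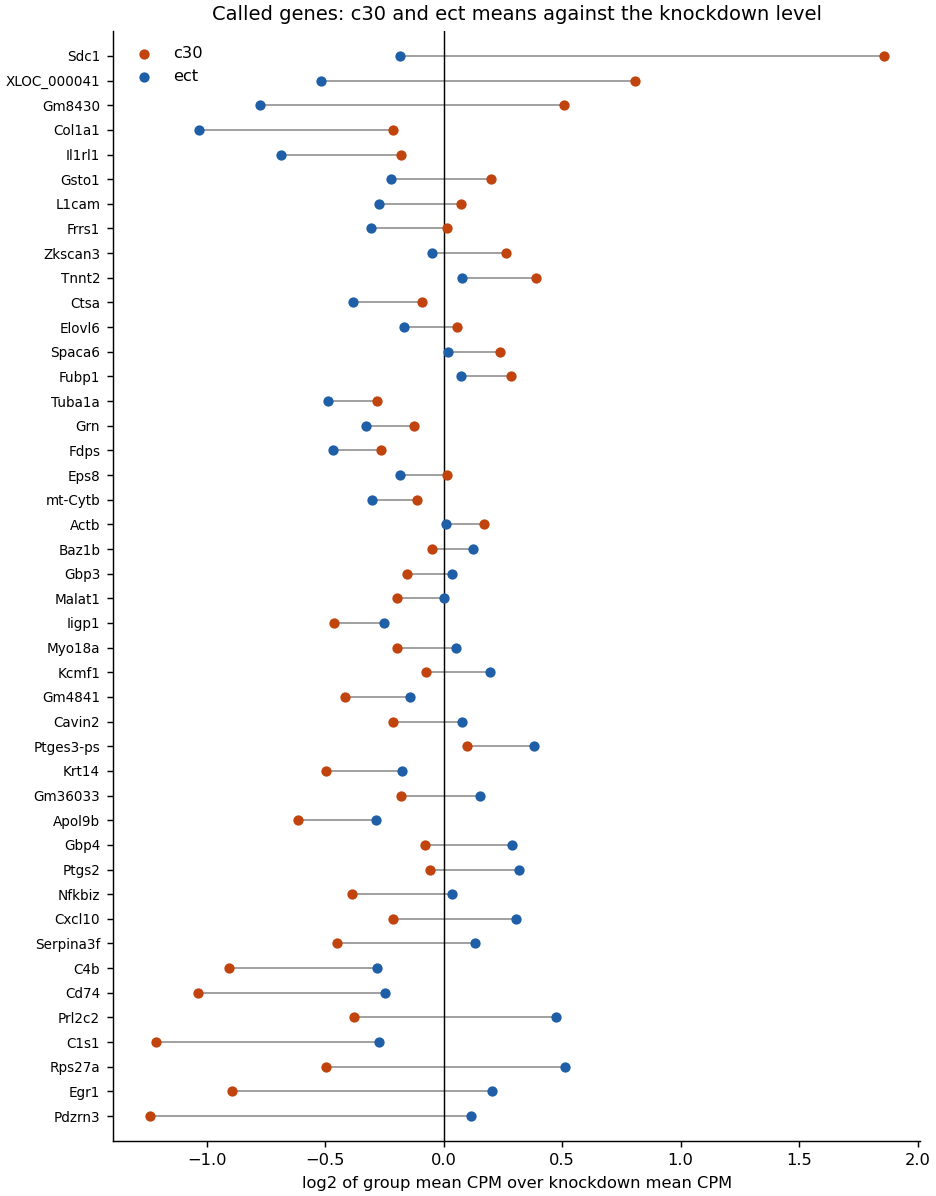
Log2 ratio of the mean CPM with c30 and with ect to the mean CPM of the knockdown for the called genes (Gm10634 is left out because both c30 libraries were at 0), with a line joining the 2 forms. The vertical line is the knockdown level; Sdc1 with c30 lies farthest above it, and Pdzrn3, C1s1 and Cd74 with c30 lie farthest below.

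Programmes that other surface receptors and stresses set in motion gave no call. Among YAP-TEAD targets 0 of 18 tested passed, although 9 lay below without overlap (50%, against 19.2% of all tested genes) and 2 above (11.1%, against 19.5%), with a median of -0.06. Among Wnt targets and antagonists 0 of 13 passed, with 4 above (30.8%) and 0 below. Transforming growth factor and bone morphogenetic protein targets (0 of 20), growth factors that bind heparan sulphate and their receptors (0 of 23), p53 targets (0 of 23) and cell cycle genes (0 of 41) had medians between 0.00 and 0.02. The YAP target Axl gave 0.02 (SE 0.0384), the Wnt target Ccnd1 0.01 (SE 0.0413), the receptor Fgfr1 0.10 (SE 0.0476) and the proliferation marker Mki67 0.11 (SE 0.0394), with adjusted p = 0.955, 0.987, 0.552 and 0.291. Endoplasmic reticulum stress (0 of 16), ATF4 targets (0 of 24), NRF2 targets (0 of 23), and hypoxia and glycolysis (0 of 32) also had no called member. Without overlap, 7 endoplasmic reticulum stress genes lay above (43.75%) and 4 below (25%), and 5 ATF4 targets lay above (20.8%) and 9 below (37.5%). For NRF2 targets 7 lay above (30.4%) and 6 below (26.1%), and for hypoxia and glycolysis 7 above (21.9%) and 6 below (18.75%). The chaperone Hspa5 gave 0.04 (adjusted p = 0.809), the serine synthesis genes Phgdh and Psat1 0.01 and -0.08 (adjusted p = 0.964 and 0.581), the peroxidase Prdx1 0.00 (adjusted p = 0.999) and the glycolytic enzymes Eno1 and Pkm 0.02 and -0.02 (adjusted p = 0.916 and 0.943).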

How the data were processed

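RNA from cultured cells was made into messenger RNA libraries and sequenced in pairs, per the labels' protocols. The authors deposited raw counts, 1 whole number per gene and library, for 60676 genes and loci, of which 51884 were given a symbol through a reference annotation. Per the submitters' processing notes, Trimmomatic, HISAT2 2.0.5, HTSeq, featureCounts and DESeq2 were used with build GRCm39. The annotation release, strand setting and handling of reads with several matches are not given in the sources used here.

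Groups were taken from the titles. Total counts ranged from 11349447 to 15041133 in the 6 MC38 libraries, so that 3 counts, taken as the floor per library, were 0.199 to 0.264 CPM. edgeR 4.0.16 in R 4.3.3 was run with filterByExpr, TMM normalization and a robust quasi-likelihood fit of the 6 MC38 libraries (2-sided tests, Benjamini-Hochberg adjustment, common biological coefficient of variation 4.84%). Intervals are at the 95% level and use the SE with a normal quantile, not the degrees of freedom of the test.

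The gene lists (32, and 6 of cell type markers) and the rule for named genes were chosen with earlier results of these data known. The rule took Sdc1, the 12 largest rises and 12 largest falls among called genes whose c30 and ect libraries did not overlap and whose mean reached 5 CPM, without predicted genes, pseudogenes and unnamed loci. From each list it took up to 3 called members with the smallest p, or the 2 with the highest level where fewer than 2 were called. Some genes that the rule takes are not reported here. Alternatives were RLE size factors, other filters on low counts, DESeq2 1.42.0, limma-voom (limma 3.58.1), replicate number as a block, other sets of libraries, leaving out each library, and leaving out mitochondrially encoded, ribosomal protein and unnamed loci. Promoter letters came from RefSeq on GRCm38.p6 by symbol, and no coordinates of the deposited build are printed. Figures were drawn with matplotlib 3.10.9.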

Additional observations from a re-analysis of the deposited data

How the results depend on the processing

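The number of called genes, 45, was 19 with DESeq2 (12 higher and 7 lower, so 63.2% higher against 44.4%), 72 with only the 4 libraries compared and 8 with all 10 libraries in 1 fit. Leaving out 1 library at a time gave 17 (without c30 replicate 2) to 97 (without knockdown replicate 2), with 21 without c30 replicate 1, 44 and 39 without ect replicates 1 and 2, and 83 without knockdown replicate 1. It was 45 with RLE size factors, 46 with limma-voom, 64 without a filter on low counts, 51 with at least 5 CPM in 2 libraries, and 54 without mitochondrially encoded, ribosomal protein and unnamed loci. With the replicate number as a block it was 55, and these included all 45. The numbers did not pair the samples: the correlations of same-numbered deviations were 0.052, -0.0057 and 0.016. Of the 94 tested genes of the interferon and presentation lists, 5 were called lower, and between 0 and 8 under the alternatives. The log2 fold change of Sdc1 ran from 1.97 to 2.12 and passed under all 15. The sign held for 45 of 45 called genes under every alternative that tested them, and 3 (Sdc1, Egr1 and Gm8430) were called under every one. In all 45 the c30 and ect-labelled libraries did not overlap, so the same sign was largely fixed in advance and does not measure stability. Apart from fewer libraries or genes in a fit, the cause of the differences between settings was not tested. With 2 libraries a group and 3 counts equal to 0.199 to 0.264 CPM, genes of a few counts cannot be read singly.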

Other observations

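The row of Gapdh, a glycolytic enzyme often used as a reference gene, varied between libraries of 1 group. It stood at 223 and 27.6 CPM in the knockdown, 90.8 and 34.6 CPM with c30 and 261 and 234 CPM with ect (log2 fold change -1.98, SE 1.19, adjusted p = 0.756). Replicates of the knockdown thus differed by more than the forms did for any gene called here other than Gm10634, and the value supports no comparison.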
